A study of Rattus norvegicus with 8 samples.

Results

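The 45 genes described here encode the histones, their variants and the chaperones that carry them to and from DNA. They were chosen by gene symbol, as every row whose symbol begins with Hist and a digit, H1f, H2af, H3f, Chaf1, Asf1 or Nap1l, or is Nasp, Npm1, Npm2 or Npm3, and they are 45 of the 16764 genes in the table. The choice was made with earlier results of these data known. By role they fall into 20 clustered core histones (H2A, H2B, H3 and H4 genes named Hist), 7 linker histones, 7 core histone variants and 11 chaperones. Npm3, H3f3a and Chaf1a were not analysed here. Of the 45 genes, 41 passed the filter on low counts and were tested, and 4 (H1fnt, H2afb3, Hist1h2af and Nap1l2) did not. Symbols of 4 others (H2afx, Hist1h1d, Hist1h2bh and Hist1h2bl) match more than 1 current rat gene, so which gene their counts belong to is uncertain. Clustered histone genes are also close copies of each other, and reads shared between copies may have been split or lost in counting.

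RNA was sequenced from 3 groups of rat male germ cells with 2 libraries each, and the total count per library ran from 2657291 to 5697165. USg is a line of spermatogonia derived from Brown Norway rats and kept undifferentiated in SG medium, labelled as collected at 0 h of differentiation and before plating on laminin. Sample titles read T120plusG for USg and T120plusRAplusN for DSg, so the labels do not settle how long USg was in culture. DSg is the same line after 120 h in SD medium, which holds all-trans retinoic acid and neuregulin-1, on laminin, collected at day 7 after plating. Spc is a primary fraction of testis cells that did not bind plastic, collagen or laminin, kept 2.5 days in medium with 10% serum and labelled as enriched in spermatocytes, so the Spc libraries differ from the others in source, culture and medium together, and these cannot be told apart. USg and DSg both rest on 1 line, so the spread between their libraries is a spread within that line and not between animals. The labels number the replicates and do not say whether they were separate cultures.

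Histones package DNA into nucleosomes, each of which wraps DNA around an octamer of H2A, H2B, H3 and H4, with a linker histone H1 bound where the DNA enters and leaves. Most core and linker histone genes lie in clusters and are read in S phase, and their mRNAs end in a stem-loop instead of a poly(A) tail, whereas variant genes such as those of H3.3, H2A.Z and macroH2A are read through the cell cycle and give polyadenylated mRNA. Male germ cells add testis forms of H1, H2A and H2B as they enter meiosis, before most histones are replaced by transition proteins and protamines in spermatids.

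The labels were checked against marker genes on TMM-scaled CPM (a gene's count relative to the library's scaled total, a level within 1 gene and not comparable between genes of different length). All 7 spermatocyte markers tested rose in Spc against USg, and 6 of 7 rose against DSg (1 of the 7 is Hist1h1t, itself a member), with a summed level of 6165 to 7064 CPM in Spc, 478 to 870.1 CPM in USg and 532 to 941 CPM in DSg. Markers of undifferentiated spermatogonia summed to 1527 to 1745 CPM in USg, 272 to 279 CPM in DSg and 61.3 to 63.4 CPM in Spc. Several lists of somatic markers were also higher in Spc. Sertoli cell markers summed to 1105 to 1372 CPM in Spc against 408.6 to 461 CPM in USg and 212 to 248 CPM in DSg, with 5 of 7 tested higher against USg and 6 of 7 against DSg. Peritubular and fibroblast markers summed to 2363 to 2470 CPM in Spc against 197 to 432 CPM in USg and 221.1 to 270.3 CPM in DSg, with 7 of 8 higher in both comparisons. Leydig cell markers summed to 163 to 174 CPM in Spc, 5.40 to 5.52 CPM in USg, where Insl3 was at 0, and 9.70 to 21.3 CPM in DSg, with Star higher against each and Cyp11a1 lower against DSg among 3 tested. Blood and endothelial markers summed to 65.6 to 84.9 CPM in Spc, 122 to 191 CPM in USg and 57.8 to 75.1 CPM in DSg, with 3 higher and 2 lower of 7 tested against USg and 1 higher and 1 lower against DSg. No somatic marker was at 0 in Spc, and the part of these cells in any difference between Spc and the other groups was not tested. In such bulk libraries, fewer cells of a type and less RNA per cell cannot be told apart.

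Before any comparison between groups, the libraries of 1 group differed from each other in histone content. The 20 clustered core histone genes took 0.248% of all counts in USg 1 (95% Wilson interval 0.242 to 0.254, counting error only) and 1.98% in USg 2 (1.97 to 2.00). They took 0.336% and 0.830% in the DSg libraries and 2.04% and 0.808% in the Spc libraries. USg 2 and Spc 1 were thus the high libraries, and the USg libraries lay apart on either side of both DSg libraries. The share of rRNA counts ran the other way in each group. It was 7.80% in USg 1 and 0.00295% in USg 2, 12.4% in DSg 1 and 0.0325% in DSg 2, and 0.00368% in Spc 1 and 0.733% in Spc 2. In all 3 groups the library with less rRNA had the larger summed share of core histones. Gene by gene this did not hold in DSg. Over the 19 tested core histones the median log2 difference was -0.15 for DSg 2 over DSg 1. It was 2.15 for USg 2 over USg 1 and 1.07 for Spc 1 over Spc 2 (1 CPM added). Hist3h2a and Hist3h3 held 8683 and 7302 of the 25191 core histone counts in DSg 2. The part of rRNA content in the histone values was not tested. DSg 2 stood apart in another way, since 96.7% of the 1045 olfactory receptor genes had a count there and these genes summed to 1673 CPM, against 126 to 289 CPM in the other libraries. The median olfactory receptor gene was at 1.08 CPM in DSg 2 and the 95th percentile at 2.69 CPM, so levels below that in DSg 2 are not distinguished from this background.

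**Figure D1:**
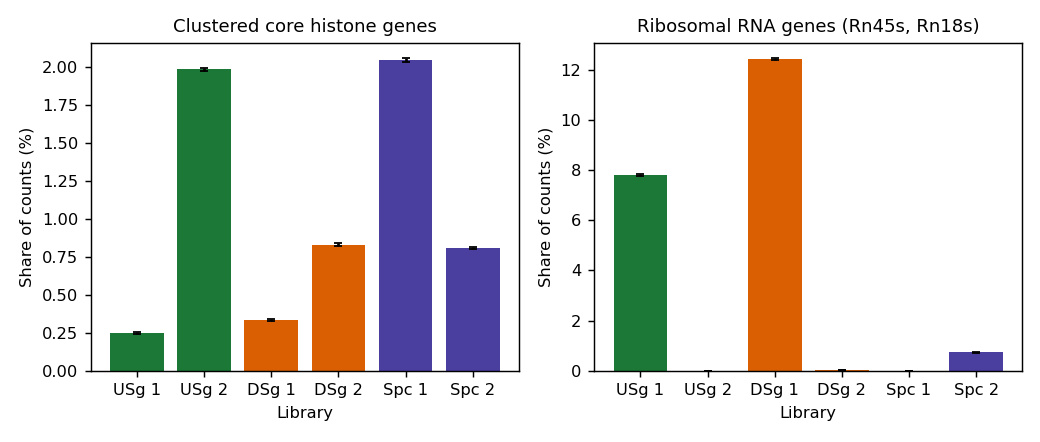
Share of each library's total count, in percent, taken by the 20 clustered core histone genes and by rRNA genes, for the 6 libraries, with bars for the share and error bars for the Wilson interval. Core histones were highest in USg 2 (1.98%) and Spc 1 (2.04%), and in each group the library with less rRNA had the larger core histone share.

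The groups were compared with edgeR's quasi-likelihood test at an adjusted p under 0.05 over 12210 genes, and the members' counts are set beside the share of all genes called. From USg to DSg, 1 of 41 members was higher and 1 was lower, where 0.565% of all genes were higher and 1.92% lower (2.48% in either direction). From USg to Spc, 7 members were higher and 7 lower, where 17.9% of all genes were higher and 16.6% lower (34.5% in either direction), so the members were called about as often as other genes. From DSg to Spc, 6 were higher and 1 was lower, beside 14.8% and 11.7% of all genes (26.5% in either direction). Members whose libraries did not overlap between groups numbered 6 higher and 10 lower from USg to DSg (21.2% and 21.1% of all genes), 13 higher and 12 lower from USg to Spc (37.1% and 35.3%), and 18 higher and 6 lower from DSg to Spc (36.6% and 34.6%). When libraries were scaled by total count, or by their upper quartile, in place of TMM, the share of higher calls over all genes from DSg to Spc shifted from 55.8% to 45.6% or 43.6%, and the members called were 5 higher and 1 lower with either. Those scalings moved the median log2 fold change of all genes to 0.16 and 0.15 from USg to DSg and to -0.22 and -0.25 from DSg to Spc. The median log2 fold change of the 41 members was -0.58, -0.32 and 0.21 in the 3 comparisons in that order, against 0.01, -0.04 and -0.03 over all genes tested. The last of these member medians was 0.06 and 0.00 under these scalings, above the shifted median of all genes in both. USg serves as the control in both of the first comparisons and Spc is in both of the last, so the 3 sets of values are not independent.

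**Figure D2:**
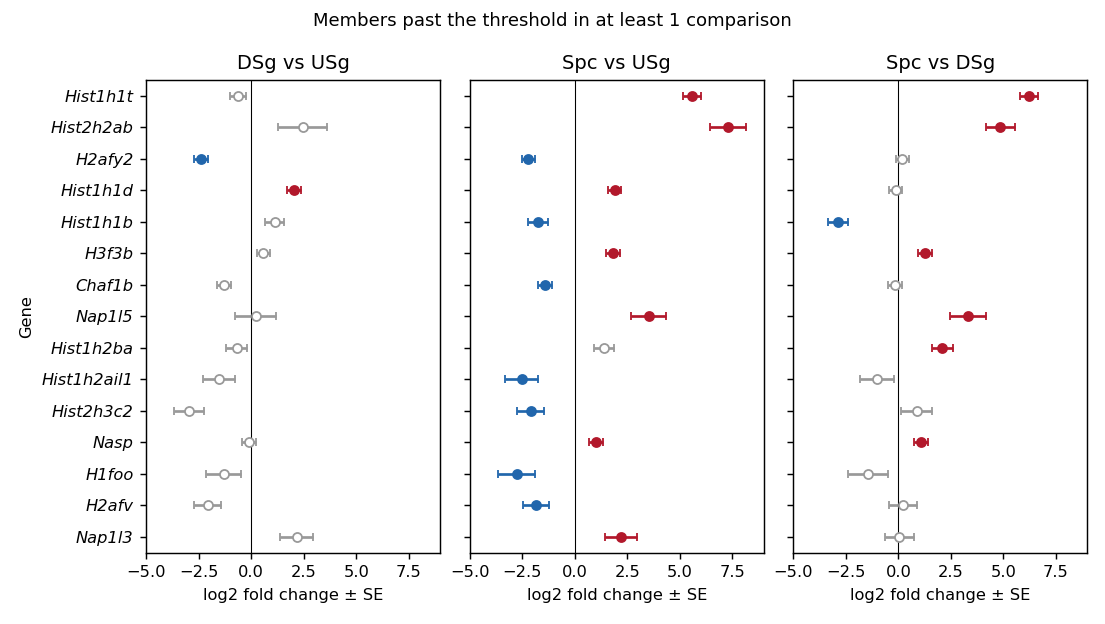
Log2 fold change with its standard error for the 15 members called in at least 1 comparison, with 1 panel per comparison, filled points past the edgeR threshold and open points short of it. Hist1h1t and Hist2h2ab lie farthest to the right in both Spc panels, and the Hist2h2ab value against USg rests on 1 count in USg.

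Of the 6 linker histones tested, 2 were called higher and 2 lower from USg to Spc, beside 17.9% and 16.6% of all genes. From DSg to Spc 1 was called higher and 1 lower, beside 14.8% and 11.7% of all genes. The linker histones on chromosome 17 include Hist1h1t, the testis linker histone made in pachytene spermatocytes, and Hist1h1a, Hist1h1b and Hist1h1d, which belong to the replication-dependent H1 genes. The 300-base promoter windows of Hist1h1t and Hist1h1b are shown because these genes, both on chromosome 17, moved in opposite directions in Spc. RefSeq places them in GRCr8 at chr17:41855911-41856210 on the minus strand and at chr17:47421625-47421924 on the plus strand, each from 250 bases before to 50 bases after the gene's start. Capitals mark, on either strand, the CCAAT box (CCAAT or ATTGG), the TATA box (TATAAA or TTTATA), the octamer (ATTTGCAT or ATGCAAAT) and the H1 box (AAACACA or TGTGTTT).
Hist1h1t: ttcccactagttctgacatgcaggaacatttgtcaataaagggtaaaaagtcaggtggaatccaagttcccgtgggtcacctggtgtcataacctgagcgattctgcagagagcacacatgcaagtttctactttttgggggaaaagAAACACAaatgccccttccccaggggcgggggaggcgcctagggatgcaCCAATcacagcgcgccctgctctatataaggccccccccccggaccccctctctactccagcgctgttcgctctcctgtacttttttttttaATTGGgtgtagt
Hist1h1b: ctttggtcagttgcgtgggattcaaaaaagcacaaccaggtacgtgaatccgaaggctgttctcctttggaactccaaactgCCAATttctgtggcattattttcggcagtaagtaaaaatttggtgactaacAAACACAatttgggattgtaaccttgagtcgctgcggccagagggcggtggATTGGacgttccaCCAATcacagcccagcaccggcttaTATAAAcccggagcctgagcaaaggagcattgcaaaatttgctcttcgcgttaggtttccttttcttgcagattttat
Both windows held the H1 box and CCAAT boxes, and the TATA letters were matched in that of Hist1h1b only, which shows just that those exact letters were not in the other window.

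Hist1h1t was at 11.6 and 14.1 CPM in the USg libraries, 10.9 and 6.19 CPM in the DSg libraries and 538 and 697 CPM in the Spc libraries. Both Spc libraries lay far above all 4 others, and the USg to DSg difference did not pass the test (log2 fold change -0.62 ± 0.39 SE, edgeR adjusted p = 0.415). Spc exceeded USg by 5.58 ± 0.41 on the log2 scale (edgeR adjusted p = 0.000111) and DSg by 6.20 ± 0.43 (edgeR adjusted p = 0.000128). These calls were kept under all 19 alternatives tried.

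Hist1h1b fell in Spc while Hist1h1t rose. Its levels were 67.9 and 39.7 CPM in USg, 157 and 76.2 CPM in DSg and 13.0 and 18.5 CPM in Spc. The Spc libraries were the lowest and the DSg libraries the highest, with no overlap between any groups. The fall from DSg to Spc was -2.88 ± 0.48 log2 (edgeR adjusted p = 0.00325) and was called under all 19 alternatives. From USg to Spc it was -1.76 ± 0.46 (edgeR adjusted p = 0.0182), and this call was lost without USg 1 (-1.38, edgeR adjusted p = 0.0507) or without Spc 1 (-1.54, edgeR adjusted p = 0.128). The higher DSg level did not pass against USg (1.12 ± 0.45, edgeR adjusted p = 0.222).

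Hist1h1d was the member that rose from USg to DSg. It was at 131 and 106 CPM in USg, 571 and 398 CPM in DSg and 467 and 412 CPM in Spc, so that the USg libraries were apart from the other 4 and DSg and Spc overlapped. The log2 fold change was 2.03 ± 0.32 in DSg (edgeR adjusted p = 0.0195) and 1.89 ± 0.32 in Spc (edgeR adjusted p = 0.00238) against USg. Without DSg 1 or DSg 2 the first of these was 1.56 or 2.27, when DSg is left with 1 library. Neither fit called any gene of the table between DSg and USg, so they cannot show how far this call rests on either library. In the fit of the 4 libraries compared, the rise in DSg was 2.06 (edgeR adjusted p = 0.0562). The Spc difference was called without any single library. The symbol Hist1h1d is among those that match more than 1 current gene.

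H1f0, the replacement H1 of cells that stop dividing, was at 131 and 105 CPM in USg, 220 and 265 CPM in DSg and 196 and 194 CPM in Spc. USg was below both other groups with no overlap, yet neither difference passed the threshold (1.04 ± 0.29, edgeR adjusted p = 0.106, in DSg and 0.72 ± 0.29, edgeR adjusted p = 0.0852, in Spc). The DSg difference passed in 3 of 19 alternatives, DESeq2 with all libraries (adjusted p = 0.0498) among them, and the Spc difference in 1 of 19. Hist1h1a was at 1266 and 1037 CPM in USg, 2106 and 1141 CPM in DSg and 889 and 933 CPM in Spc, lowest in Spc, and no difference passed. The oocyte linker histone H1foo was low throughout, at 4.63 and 6.77 CPM in USg, 1.21 and 3.23 CPM in DSg and 1.18 and 0.435 CPM in Spc. It fell from USg to Spc (-2.77 ± 0.89 log2, edgeR adjusted p = 0.0393), a call lost without USg 1, USg 2, Spc 1 or Spc 2. With all libraries the call was also lost with total count scaling (edgeR adjusted p = 0.0629) and the replicate block (edgeR adjusted p = 0.0595). H1fnt, a linker histone of spermatids, had at most 7 counts in a library and was not tested. Summed, the linker histones came to 1613 and 1309 CPM in USg, 3066 and 1892 CPM in DSg and 2105 and 2254 CPM in Spc.

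**Figure D3:**
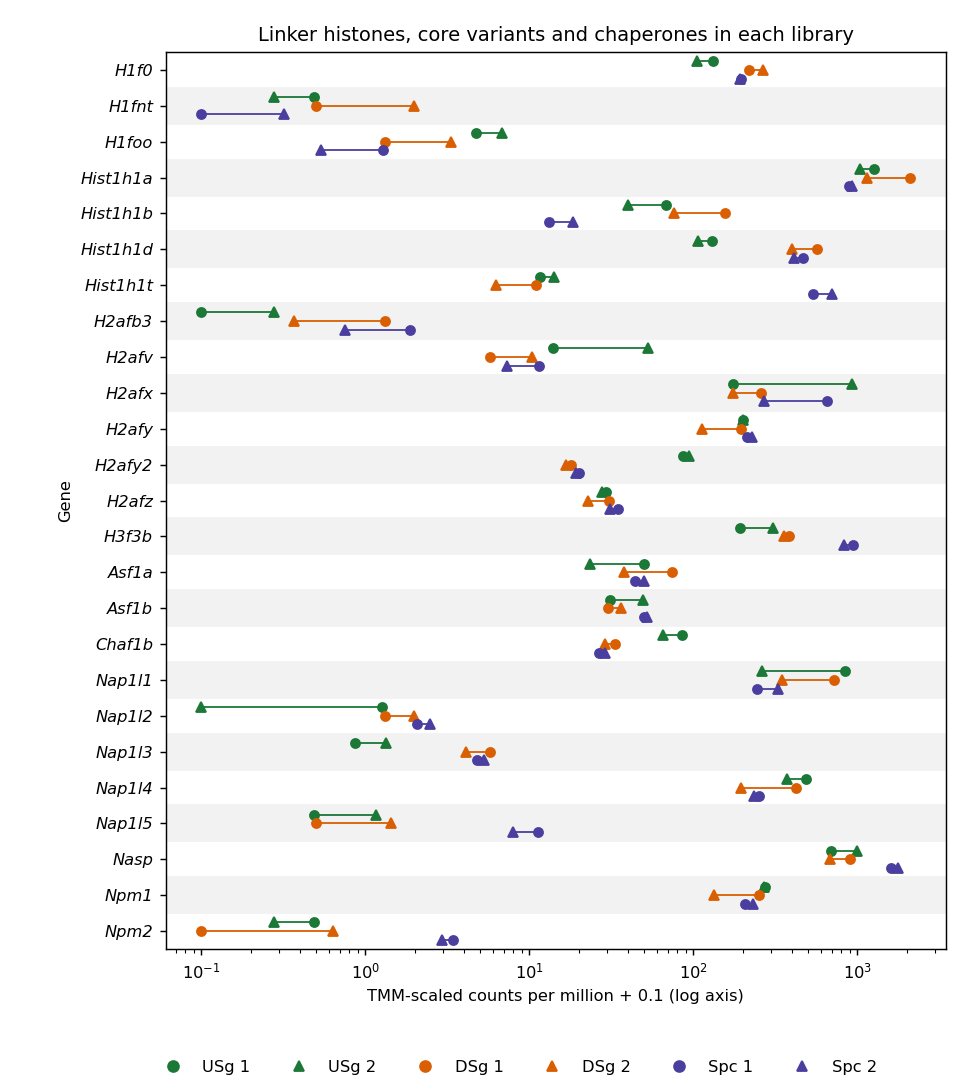
Level of linker histones, core histone variants and chaperones in each library, in TMM-scaled CPM on a log axis with 0.1 added, coloured by group with a line joining the 2 libraries. For most of these genes the line is short, and Hist1h1t, H2afy2 and H3f3b separate the groups.

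Among clustered core histones, the replicates spread more than the groups. At 20 genes, and 19 tested, their summed level was 2576 and 20117 CPM in USg, 3613 and 6783 CPM in DSg and 21372 and 8555 CPM in Spc, with means of 11347 ± 12403, 5198 ± 2242 and 14963 ± 9062 CPM (SD over 2 libraries). Every group overlapped at least 1 other on this sum. The median gene differed 4.43-fold between the USg libraries, 1.62-fold between the DSg libraries and 2.09-fold between the Spc libraries (1 CPM added). For linker histones the same medians were 1.24, 1.75 and 1.21, and for chaperones 1.38, 1.61 and 1.11. USg 2 was at least 2-fold above USg 1 for 14 of the 19 core histones (73.7%), where 13.9% of all genes were, and Spc 1 was at least 2-fold above Spc 2 for 10 of 19 (52.6%), where 1.29% were. The opposite order was found for 1 of 19 in USg and 0 of 19 in Spc, beside 10.4% and 0.647% of all genes. DSg 2 was that far above DSg 1 for 3 of 19 (15.8%, as for 15.8% of all genes) and below it for 4 of 19 (21.1%, beside 4.76%). Both of the first patterns held for 8 of 19 (42.1%), beside 0.68% of all genes. Outside the clusters they held for the variant H2afx and for no linker histone or chaperone. Across the 19 genes the log2 difference of USg 2 over USg 1 had a Pearson r of 0.63 with that of Spc 1 over Spc 2, and across all 12210 genes r was 0.29. These points share the same 4 libraries, and r is given as a description. In order of the smaller of these differences, 8 of the top 20 genes of the table were members, and the top 4 were Hist1h2bl, Hist1h2ak, Hist2h4 and Hist1h4m.

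**Figure D4:**
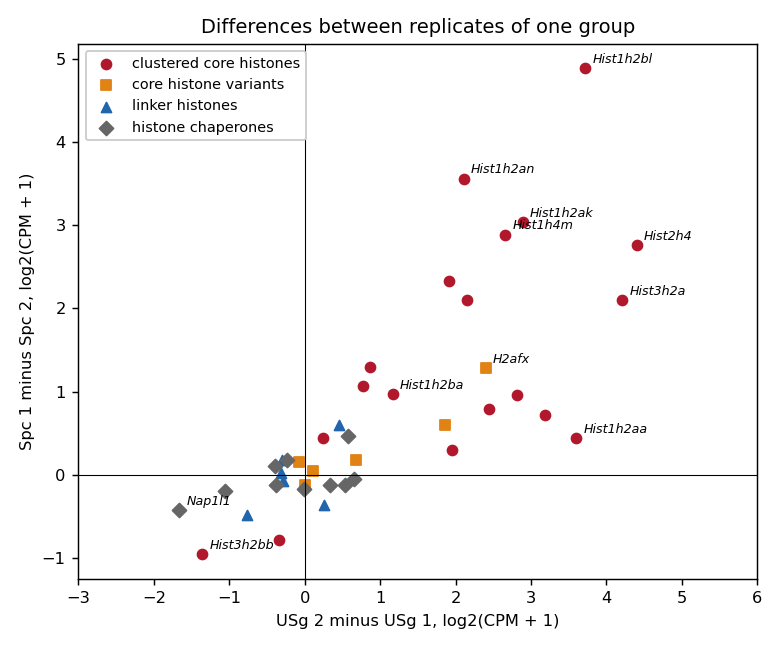
Log2 difference between the libraries of a group (1 CPM added), USg 2 over USg 1 on the horizontal axis and Spc 1 over Spc 2 on the vertical axis, for the 41 tested members, with a colour and marker for each class. Of the clustered core histones 8 of 19 lie past 2-fold on both axes, and linker histones and most chaperones lie near 0.

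Hist2h2ab, an H2A gene of the chromosome 2 cluster, was the core histone that set Spc apart most clearly. It had 0 and 1 counts in USg, at most 1.08 CPM in DSg (0.404 and 1.08, the latter within the background of DSg 2), and 27.2 and 19.8 CPM in Spc. Both Spc libraries lay above the other 4 without overlap. The 229 counts in Spc against 1 in USg gave a ratio of 194 with a counting interval of 34.6 to 7713 (95%), and the difference passed the test (edgeR adjusted p = 0.000471). Spc was above DSg by 4.84 ± 0.69 log2 (edgeR adjusted p = 0.00167). Both calls were kept in every alternative, those that left out a library included.

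Testis H2A and H2B come from a divergent pair of genes, Hist1h2aa (TH2A) and Hist1h2ba (TH2B), whose products take the place of much somatic H2A and H2B in meiotic cells. Hist1h2ba was at 379 and 852 CPM in USg, 474 and 287 CPM in DSg and 2145 and 1094 CPM in Spc. Both Spc libraries were above the other 4. The rise over DSg was 2.09 ± 0.50 log2 (edgeR adjusted p = 0.0163). That call was lost without DSg 1 (2.68, edgeR adjusted p = 0.0522), DSg 2 (1.77, edgeR adjusted p = 0.122) or Spc 1 (1.58, edgeR adjusted p = 0.0502). Against USg the difference was 1.39 ± 0.49 (edgeR adjusted p = 0.0558), and it passed in 9 of 19 alternatives, with all libraries under DESeq2 (adjusted p = 0.0109), limma-voom (adjusted p = 0.0367) and the replicate block (edgeR adjusted p = 0.0431), and without USg 2 (2.11, edgeR adjusted p = 0.0113) or without Spc 2 (1.81, edgeR adjusted p = 0.0154). Its partner Hist1h2aa was at 88.4 and 1080 CPM in USg, 181 and 627 CPM in DSg and 1415 and 1040 CPM in Spc. USg 2 lay within the Spc range, and no difference passed in the main fit (1.07 ± 0.93 against USg and 1.60 ± 0.94 against DSg, edgeR adjusted p = 0.399 and 0.236). Spc lay above DSg without overlap, and that difference passed in 8 of 19 alternatives. Among them were the replicate block (edgeR adjusted p = 0.0217) and the fit of the 4 libraries compared (edgeR adjusted p = 0.0467). The difference from USg was 3.81 without USg 2 (edgeR adjusted p = 0.00134) and 0.14 without USg 1 (edgeR adjusted p = 0.877), and it passed with a replicate block (edgeR adjusted p = 0.0385).

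The promoter windows of Hist2h2ab and Hist1h2ba are shown because these core histones were called higher in Spc, and that of Hist3h2a because it is shared with a gene whose values ran the other way. In GRCr8 they lie at chr2:186467974-186468273, chr17:41599662-41599961 and chr10:44233033-44233332, all on the plus strand, from RefSeq, with the same capitals as before.
Hist2h2ab: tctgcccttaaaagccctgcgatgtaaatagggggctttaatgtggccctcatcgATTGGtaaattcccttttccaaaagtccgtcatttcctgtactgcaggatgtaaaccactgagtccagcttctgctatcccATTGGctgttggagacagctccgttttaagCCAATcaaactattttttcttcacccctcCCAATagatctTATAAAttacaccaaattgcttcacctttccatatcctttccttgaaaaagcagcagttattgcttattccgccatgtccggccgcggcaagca
Hist1h2ba: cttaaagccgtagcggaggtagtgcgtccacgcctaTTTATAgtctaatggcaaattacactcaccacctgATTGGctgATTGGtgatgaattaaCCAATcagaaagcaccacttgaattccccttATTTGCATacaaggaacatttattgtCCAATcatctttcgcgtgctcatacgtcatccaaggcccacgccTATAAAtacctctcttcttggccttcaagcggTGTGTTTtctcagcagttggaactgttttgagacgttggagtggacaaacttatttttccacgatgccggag
Hist3h2a: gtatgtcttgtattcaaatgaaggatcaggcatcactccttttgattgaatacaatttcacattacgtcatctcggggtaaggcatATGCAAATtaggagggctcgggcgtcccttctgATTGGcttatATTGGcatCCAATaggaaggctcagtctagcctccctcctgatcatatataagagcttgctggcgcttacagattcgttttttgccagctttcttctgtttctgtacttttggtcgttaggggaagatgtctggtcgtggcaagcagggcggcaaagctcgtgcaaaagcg
The start of Hist1h2aa is 240 bases from that of Hist1h2ba, on the other strand, and their windows share 261 bases, so the Hist1h2ba letters also serve Hist1h2aa. Hist3h2a likewise shares 283 bases with the window of Hist3h2bb, whose start is 218 bases away. These 2 genes around 1 stretch of DNA did not follow each other across libraries. Hist3h2a was at 393 and 7284 CPM in USg, 440 and 2338 CPM in DSg and 9397 and 2187 CPM in Spc, while Hist3h2bb was at 56.0 and 21.2, 83.2 and 19.7, and 14.4 and 29.0 CPM. In each group the library that was higher in Hist3h2a was lower in Hist3h2bb, and edgeR called neither between groups with all libraries. Hist3h2a was higher in Spc than in USg without USg 2 (3.90, edgeR adjusted p = 0.0135), and higher in Spc than in DSg without USg 1, USg 2 or Spc 2 (2.21, 2.18 and 2.87, edgeR adjusted p = 0.0338, 0.0332 and 0.000157) and with a replicate block (0.0414).

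RefSeq windows were found for 38 of the 45 members, 20 of them named Hist. The CCAAT box was in 18 of those 20 (90%), against 37.5% of all 33469 promoters of the table, and the TATA box in 12 (60%), against 14.2%. The octamer was in 8 (40%), against 1.78% of all promoters, and these were 4 of 7 H2A and 4 of 6 H2B windows and none of the H1, H3 and H4 windows. The H1 box was in 4 (20%), against 6.99%, namely Hist1h1b, Hist1h1t and the shared stretch of Hist1h2aa and Hist1h2ba. Of the 18 other members, 9 had the CCAAT box (50%), 3 the TATA box (16.7%), 1 the H1 box and 1 the octamer (5.56% each). Shared windows are counted once per gene. No letters were found in the 2 H4 windows, which says only that these exact motifs were not there.

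Other H2A and H2B genes followed the libraries more than the groups. Hist1h2ail1 was at 4.24 and 19.2 CPM in USg, 3.64 and 4.58 CPM in DSg and 2.37 and 1.74 CPM in Spc. It fell from USg to Spc without overlap (-2.53 ± 0.78, edgeR adjusted p = 0.0337), but the fall was -1.02 without USg 2, and was also not called without Spc 1 or Spc 2. Limma-voom did not call it with all libraries (adjusted p = 0.0631), and the call was lost in 5 of 19 alternatives in all. Hist1h2an was at 106 and 458 CPM in USg, 169 and 42.3 CPM in DSg and 51.8 and 3.48 CPM in Spc, and its USg to Spc difference lay at the threshold (-3.35 ± 1.15, edgeR adjusted p = 0.0502). It was called in 13 of 19 alternatives, limma-voom (adjusted p = 0.0244) and RLE scaling (edgeR adjusted p = 0.0472) among them but not DESeq2 (adjusted p = 0.0794), with a range of 3.64e-10 to 0.173. It was -6.35 without Spc 1 and -1.91 without USg 2 (edgeR adjusted p = 3.64e-10 and 0.173). Hist1h2ak was at 69.5 and 521 CPM, 86.9 and 60.9 CPM, and 76.9 and 8.49 CPM in the same order of groups, with Spc 1 inside the USg range. Its USg to Spc difference (-2.79 ± 1.04, edgeR adjusted p = 0.0664) was called in 8 of 19 alternatives, among them the fits without USg 1 (0.00391), Spc 1 (6.78e-08) and Spc 2 (0.0394), as edgeR adjusted p. Hist1h2bl had the widest replicate gap, at 12.0 and 170 CPM in USg, 26.7 and 20.5 CPM in DSg and 67.2 and 1.31 CPM in Spc. Its Spc to DSg difference was 0.55 ± 1.35 with all libraries and -4.07 without Spc 1 (edgeR adjusted p = 0.0002). The direction for Hist1h2bl between Spc and DSg thus rested on Spc 1. Hist1h2bh, at 289 and 1573 CPM, 505 and 817 CPM, and 644 and 371 CPM, and Hist1h2bk, at 90.7 and 836 CPM, 188 and 431 CPM, and 719 and 437 CPM, showed the same high USg 2. From USg to Spc, Hist1h2bk was higher without USg 2 (2.69, edgeR adjusted p = 0.00321) and Hist1h2bh lower without USg 1 (-1.67, edgeR adjusted p = 0.0081), and neither was called with all libraries. Hist1h2bd ran from 5.22 to 53.8 CPM over the 6 libraries and Hist1h2bo from 0.539 to 6.11 CPM, with no edgeR call in the fit of all libraries.

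Hist3h2ba, an H2B gene on chromosome 10, did not share that pattern. Its libraries were close in USg, at 88.0 and 69.4 CPM, and in DSg, at 29.5 and 26.4 CPM. In Spc they were at 29.6 and 51.4 CPM, a 1.74-fold gap. USg was above both other groups without overlap. The difference was -1.49 ± 0.38 in DSg (edgeR adjusted p = 0.0784) and -0.96 ± 0.37 in Spc (edgeR adjusted p = 0.0728), short of the threshold in both. The DSg difference passed in 6 of 19 alternatives, DESeq2 (adjusted p = 0.0208) and the replicate block (edgeR adjusted p = 0.0447) among them, in a range of 0.00127 to 0.302, and the Spc difference with limma-voom (adjusted p = 0.0499).

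H3 and H4 genes split in the same way. Hist3h3, an H3 gene on chromosome 10, was at 815 and 5734 CPM in USg, 1175 and 1966 CPM in DSg and 6282 and 3236 CPM in Spc. USg spanned most of that range, and Spc exceeded USg by 0.54 ± 0.76 with all libraries (edgeR adjusted p = 0.611) and by 2.56 without USg 2. Spc lay above DSg without overlap, and this difference did not pass in the main fit (1.60 ± 0.78, edgeR adjusted p = 0.159). It passed in 8 of 19 alternatives, DESeq2 (adjusted p = 0.0365) and the fit of the 4 libraries compared (edgeR adjusted p = 0.0246) among them. Hist2h3c2, at 15.8 and 29.6 CPM in USg, 4.44 and 1.62 CPM in DSg and 7.88 and 2.61 CPM in Spc, was higher in both USg libraries than in any other. The DSg to USg difference (-2.97 ± 0.73, edgeR adjusted p = 0.0739) passed in 8 of 19 alternatives, DESeq2 (adjusted p = 0.00585) and the replicate block (edgeR adjusted p = 0.0218) among them, with a range of 3.97e-05 to 0.521. It fell from USg to Spc (-2.11 ± 0.66, edgeR adjusted p = 0.0368), and the fall was -1.56 without USg 2 (edgeR adjusted p = 0.158) and -1.52 without Spc 2 (edgeR adjusted p = 0.207). The H4 gene Hist2h4 was at 30.1 and 657 CPM in USg, 10.9 and 16.2 CPM in DSg and 185 and 26.3 CPM in Spc. Both DSg libraries were the lowest. The DSg to USg difference of -4.66 ± 1.35 did not pass (edgeR adjusted p = 0.115), and it was -5.73 without USg 1 and -1.20 without USg 2. Without Spc 1 or Spc 2 it was -4.78 or -4.73. It passed in 7 of 19 alternatives, the replicate block (edgeR adjusted p = 0.042) among them. Spc lay above DSg without overlap (2.95 ± 1.27, edgeR adjusted p = 0.118). That difference passed in 8 of 19 alternatives, the replicate block (edgeR adjusted p = 0.0411) and the fit of the 4 libraries compared (edgeR adjusted p = 0.0227) among them. Hist1h4m, at 99.9 and 637 CPM in USg, 175 and 75.9 CPM in DSg and 234 and 30.7 CPM in Spc, went from 0.08 ± 0.96 in Spc against DSg (edgeR adjusted p = 0.958) to -1.99 without Spc 1 (edgeR adjusted p = 0.0375). Hist1h4b ran from 7.62 CPM in Spc 2 to 113 CPM in USg 2. EdgeR called it in no comparison with all libraries, and it was lower in Spc than in USg with DESeq2 (-1.65, adjusted p = 0.0468, in a range of 8.73e-05 to 0.895 over the alternatives), without USg 1 (-2.41, edgeR adjusted p = 0.0106) and without Spc 1 (-3.20, edgeR adjusted p = 0.000756). Without Spc 1 it was also lower in Spc than in DSg (-2.07, edgeR adjusted p = 0.0477).

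**Figure D5:**
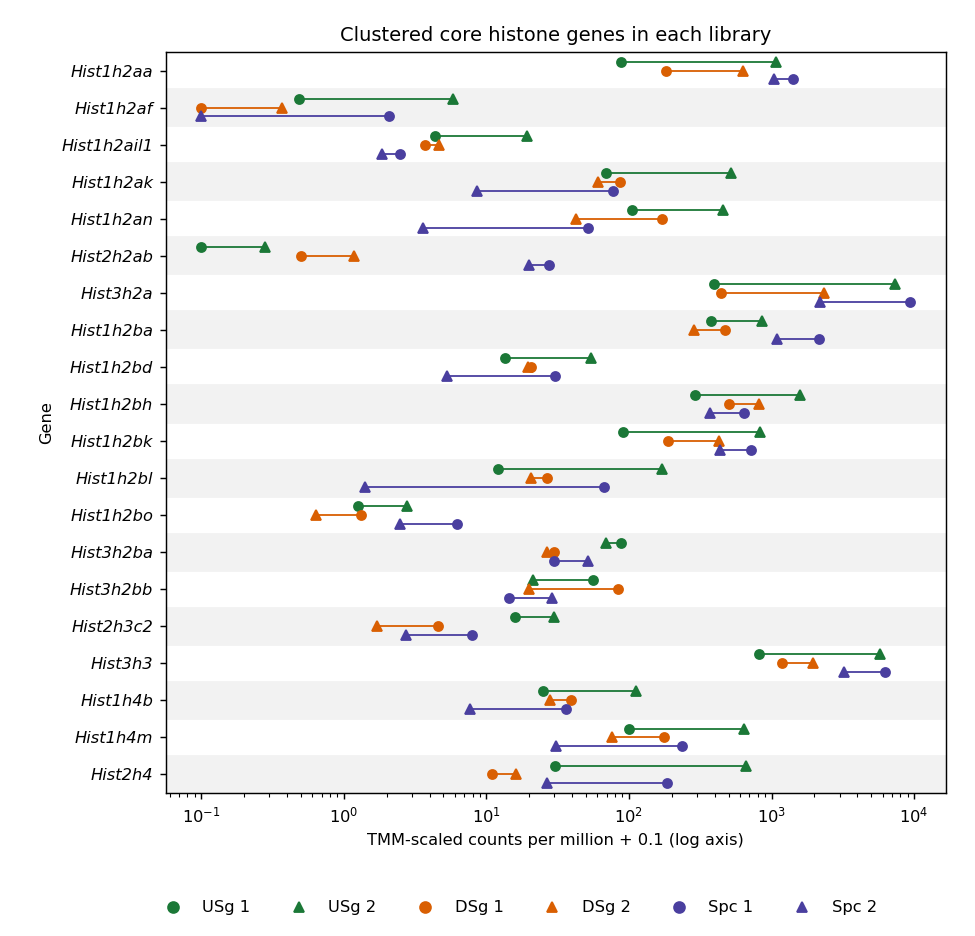
Level of each clustered core histone gene in each library, in TMM-scaled CPM on a log axis with 0.1 added, coloured by group with a line joining the 2 libraries. USg 2 is at least 2-fold above USg 1 for 14 of the 19 tested genes and Spc 1 above Spc 2 for 10, as for Hist2h4 (30.1 and 657 CPM in USg), and Hist2h2ab is set apart by both Spc libraries.

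As a set, the core histones had no direction that held without each library. Their median log2 fold change from USg to Spc was -0.94 with all libraries (1 higher and 2 lower of 19), 0.83 without USg 2 (6 higher) and -1.65 without USg 1 (1 higher, 8 lower). Over all genes those fits called 15.9% higher and 13.2% lower without USg 2, and 15.2% higher and 16.2% lower without USg 1. Leaving out Spc 1 gave -2.72 (1 higher, 8 lower, beside 9.7% and 7.56% of all genes), and leaving out Spc 2 gave -0.59. From USg to DSg 3 core histones were lower at an unadjusted p under 0.05, beside 2344 of 12210 genes at that p in either direction. DESeq2 called 2 core histones lower, beside 542 of all genes. EdgeR called 0 in either direction with all libraries. The median was -1.47, -1.34, -1.57 and -1.36 without Spc 1, Spc 2, DSg 1 and DSg 2, in that order, and -1.24 with all libraries. It was 0.30 without USg 2 and -1.95 without USg 1 (8 lower, beside 8.42% of all genes). From DSg to Spc it was 0.55 (2 higher), -0.74 without Spc 1 (1 higher, 5 lower, beside 8.67% and 3.52% of all genes) and 1.39 without Spc 2 (6 higher, beside 9.14%). A statement that clustered core histones as a set rose or fell between these groups therefore rests on which library is kept. These medians stood beside 0.01, -0.04 and -0.03 for all genes in the fit of all libraries. Hist1h2af was not tested, with 1 and 32 counts in USg, 0 and 1 in DSg and 10 and 0 in Spc.

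Outside the clusters, the variants H2afy2 and H3f3b separated groups more evenly than the core histones did. H2afy2 encodes macroH2A2, an H2A with a large extra domain found in silent chromatin. It was at 86.8 and 93.7 CPM in USg, 17.8 and 16.7 CPM in DSg and 19.9 and 19.2 CPM in Spc. Both USg libraries were above the other 4, with a narrow spread in every group. It was the member called lower from USg to DSg (-2.39 ± 0.33 log2, edgeR adjusted p = 0.0127), and it also fell from USg to Spc (-2.21 ± 0.32, edgeR adjusted p = 0.00124). Without DSg 1 or DSg 2 the first was -2.62 or -2.34. Neither fit called any gene of the table between DSg and USg, so they cannot show how far this call rests on either library. The fall of H2afy2 from USg to Spc was called in all 19 alternatives. Its relative H2afy, which encodes macroH2A1, was at 201 and 201 CPM in USg, 195 and 113 CPM in DSg and 212 and 230 CPM in Spc and was called in no comparison (-0.39 ± 0.33 in DSg and 0.14 ± 0.33 in Spc against USg).

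H3f3b, which encodes the replacement histone H3.3 that is deposited outside replication, rose in Spc. The levels were 192 and 308 CPM in USg, 384 and 360 CPM in DSg and 948 and 835 CPM in Spc, in 3 groups that did not overlap. Spc exceeded USg by 1.83 ± 0.33 (edgeR adjusted p = 0.00329), a call kept in all 19 alternatives. It exceeded DSg by 1.26 ± 0.32 (edgeR adjusted p = 0.0208). That call was lost without DSg 1 (1.49, edgeR adjusted p = 0.0643), DSg 2 (1.21, edgeR adjusted p = 0.101), Spc 1 (1.23, edgeR adjusted p = 0.175) or Spc 2 (1.41, edgeR adjusted p = 0.0959). From USg to DSg the difference was 0.57 ± 0.32 (edgeR adjusted p = 0.367).

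The pair of H2A.Z genes differed. H2afz was nearly level, at 29.3 and 27.8 CPM in USg, 30.7 and 22.6 CPM in DSg and 34.5 and 30.9 CPM in Spc, and was called in no comparison. H2afv was at 13.9 and 53.1 CPM in USg, 5.66 and 10.2 CPM in DSg and 11.4 and 7.18 CPM in Spc, with USg 2 high. Its fall from USg to Spc (-1.86 ± 0.63, edgeR adjusted p = 0.0485) was -0.56 without USg 2, and was also not called without DSg 1, DSg 2 or Spc 2. With all libraries it was not called by limma-voom (adjusted p = 0.0666) or with total count scaling (edgeR adjusted p = 0.0659). In all, the call was lost in 9 of 19 alternatives. From USg to DSg H2afv differed by -2.07 ± 0.65 without overlap and did not pass (edgeR adjusted p = 0.143). That difference passed in 7 of 19 alternatives, DESeq2 with all libraries (adjusted p = 0.0397) among them. H2afx, whose product is phosphorylated at DNA breaks and over the sex chromosomes in meiosis, followed the core histones across libraries. It was at 175 and 930 CPM in USg, 261 and 174 CPM in DSg and 653 and 268 CPM in Spc, and no comparison passed with all libraries. Without USg 1 it was lower in DSg than in USg (-2.21, edgeR adjusted p = 0.0155), and without Spc 2 higher in Spc than in DSg (1.64, edgeR adjusted p = 0.0489). H2afb3, a short H2A variant known from testis, had at most 9 counts in a library and was not tested.

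Chaperones escort free histones. The 11 chaperone genes, of which 10 were tested, summed to 2453 and 2045 CPM in USg, 2446 and 1469 CPM in DSg and 2457 and 2703 CPM in Spc. Nasp, which binds H3-H4 and linker histones and has a testis form, was at 688 and 998 CPM in USg, 901 and 681 CPM in DSg and 1614 and 1760 CPM in Spc. Both Spc libraries were above the other 4. It rose by 1.00 ± 0.33 over USg (edgeR adjusted p = 0.0439) and 1.09 ± 0.33 over DSg (edgeR adjusted p = 0.0388). Over USg the rise was 0.71 without USg 1, 0.98 without DSg 1, 1.00 without DSg 2, 1.05 without Spc 1 and 0.95 without Spc 2, with edgeR adjusted p of 0.198, 0.0592, 0.0505, 0.221 and 0.297. With all libraries the call over USg was lost with no filter (edgeR adjusted p = 0.0915). Over DSg the call was lost without DSg 1, DSg 2, Spc 1 or Spc 2. It was also lost with upper quartile scaling (edgeR adjusted p = 0.0586) and total count scaling (edgeR adjusted p = 0.0565). The direction was the same in each of these.

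Chaf1b, a subunit of CAF-1, the complex that loads H3-H4 behind replication forks, was at 85.3 and 65.5 CPM in USg, 33.1 and 28.8 CPM in DSg and 26.4 and 29.0 CPM in Spc. USg was above both other groups. It fell from USg to Spc (-1.44 ± 0.33, edgeR adjusted p = 0.00981), and the difference was -1.39 without Spc 1 (edgeR adjusted p = 0.175) and -1.50 without Spc 2 (edgeR adjusted p = 0.132). The DSg difference of -1.28 ± 0.33 missed the threshold (edgeR adjusted p = 0.0828). DESeq2 did pass it (adjusted p = 0.0423, in a range of 0.00107 to 0.296 over the alternatives). Asf1a and Asf1b, which hand H3-H4 to CAF-1 and to the H3.3 chaperones, were called in no comparison. Asf1a ran from 23.3 to 74.3 CPM over the 6 libraries and Asf1b from 30.3 to 51.8 CPM.

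Of the Nap1l genes, which encode H2A-H2B chaperones, 2 rose from USg to Spc, beside 17.9% of all genes. Nap1l5 was at 0.386 and 1.07 CPM in USg, 0.404 and 1.35 CPM in DSg and 11.2 and 7.84 CPM in Spc, the Spc libraries apart from the rest. It rose by 3.52 ± 0.84 over USg (edgeR adjusted p = 0.0123) and 3.31 ± 0.85 over DSg (edgeR adjusted p = 0.021). Both calls were lost without Spc 1 (edgeR adjusted p = 0.2 and 0.272) or without Spc 2 (edgeR adjusted p = 0.0615 and 0.0941), and the one over DSg stood at 0.05 without DSg 1. Nap1l3 was at 0.772 and 1.25 CPM in USg, 5.66 and 4.04 CPM in DSg and 4.73 and 5.22 CPM in Spc. USg was the lowest group, and the rise in Spc was 2.2 ± 0.75 (edgeR adjusted p = 0.0495). That call was lost without USg 1 (0.16), USg 2 (0.128), Spc 1 (0.314) or Spc 2 (0.361), as edgeR adjusted p, and in 12 of 18 alternatives in all, DESeq2 (0.0666), limma-voom (0.0679) and the replicate block (0.081) among them. The more widely made Nap1l1 (837 and 264 CPM in USg, 723 and 348 CPM in DSg, 243 and 327 CPM in Spc) and Nap1l4 (487 and 372, 426 and 196, 253 and 235 CPM) were called in no comparison with all libraries, and Nap1l1 was lower in Spc than in USg without USg 2 (-1.54, edgeR adjusted p = 0.0242). Nap1l2 had at most 11 counts in a library.

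Nucleoplasmins were the remaining members. Npm1, the abundant nucleolar form, was at 272 and 271 CPM in USg, 252 and 133 CPM in DSg and 205 and 231 CPM in Spc, with no call. Npm2, known as the oocyte chaperone, had 2 counts in USg, 2 in DSg and 30 in Spc over both libraries. Its ratio of Spc to USg was 12.7 with a counting interval of 3.23 to 110, and the test missed the threshold (edgeR adjusted p = 0.053).

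Other genes of the same pathways were read from lists of genes. Of 24 S phase genes tested, edgeR called 16 lower in Spc than in USg, beside 16.6% of all genes, and 12 lower in Spc than in DSg, beside 11.7%. In both comparisons none were higher, also at an unadjusted p under 0.05, with DESeq2 and with limma-voom. From USg to DSg edgeR called 0, with 2 higher and 2 lower at an unadjusted p under 0.05 and 1 lower by DESeq2 and by limma-voom. Over all genes 2344 of 12210 were at that p in either direction, and DESeq2 and limma-voom called 542 and 220 lower. The median log2 fold change of the S phase genes was -0.38, -1.29 and -1.05, beside 0.01, -0.04 and -0.03 for all genes. Tyms, a thymidylate synthase, was at 146 and 144 CPM in USg, 162 and 126 CPM in DSg and 25.6 and 29.6 CPM in Spc (-2.39 ± 0.32 against USg, edgeR adjusted p = 0.000817). Cdt1, which licenses replication origins, fell in Spc against USg (-2.94 ± 0.42, edgeR adjusted p = 0.00118), as did the helicase subunit Mcm4 (-2.30 ± 0.35, edgeR adjusted p = 0.00162). Beside these, Chaf1b and Hist1h1b fell in Spc, and the core histones had no direction that held.

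Of 15 genes of histone transcription and histone mRNA processing, 1 rose and 1 fell in Spc against USg, beside 17.9% and 16.6% of all genes, and 2 rose in Spc against DSg, beside 14.8% of all genes. From USg to DSg edgeR and limma-voom called 0, with 1 higher at an unadjusted p under 0.05 and by DESeq2. Over all genes 2344 of 12210 were at that p in either direction, and DESeq2 called 239 higher. The median of these 15 genes was 0.30 from USg to DSg, -0.31 from USg to Spc and -0.18 from DSg to Spc. Ccne2, cyclin E2, rose from 54.0 and 65.0 CPM in USg, with 153 and 111 CPM in DSg, to 474 and 488 CPM in Spc (3.01 ± 0.32 over USg, edgeR adjusted p = 0.000335). Eri1, an exonuclease that trims histone mRNA, fell in Spc against USg (-0.94 ± 0.30, edgeR adjusted p = 0.0384). Ncbp1, a subunit of the cap-binding complex, rose by 1.04 ± 0.33 over DSg (edgeR adjusted p = 0.0475). Among 25 other chaperones and deposition factors, 1 rose and 6 fell in Spc against USg (median -0.41), and 3 rose and 3 fell against DSg (median -0.36). Over all genes the shares were 17.9% and 16.6% against USg and 14.8% and 11.7% against DSg. From USg to DSg edgeR, DESeq2 and limma-voom called 0 of these, with 2 lower at an unadjusted p under 0.05. Ubn1, of the complex that deposits H3.3, rose by 1.37 ± 0.28 over USg (edgeR adjusted p = 0.00616) and Supt6h, a chaperone of transcribed chromatin, by 1.55 ± 0.35 over DSg (edgeR adjusted p = 0.0133). Hjurp, the chaperone of the centromeric H3 variant, fell in Spc against USg (-1.32 ± 0.31, edgeR adjusted p = 0.0114). Its cargo Cenpa fell from 12.7 and 26.2 CPM in USg to 3.35 and 6.53 CPM in Spc (edgeR adjusted p = 0.018).

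Of 7 other sperm nuclear protein genes, 2 passed the filter. Brdt, a bromodomain protein that binds acetylated histones in germ cells, was at 51.3 and 42.2 CPM in USg, 48.5 and 29.6 CPM in DSg and 399 and 371 CPM in Spc. The rise over USg was 3.04 ± 0.35 (edgeR adjusted p = 0.000451). Transition protein Tnp1 was at 1.93 and 16.2 CPM in USg, 4.04 and 2.96 CPM in DSg and 0.985 and 0.435 CPM in Spc (-3.65 ± 1.06 against USg, edgeR adjusted p = 0.027), with USg 2 high. Tnp2 was at 0 in USg and Prm2 at 0 in USg and Spc.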

How the data were processed

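Raw counts per gene for 6 RNA libraries of rat germ cells (3 groups of 2), deposited by the authors, were analysed. The 2 Foxa2 ChIP samples were not analysed here. Per the submitters' processing notes, the tools were featureCounts in Subread 1.4.6, the aligners STAR 2.5.3a and Bowtie2 2.2.3, and edgeR 3.2.4, with builds rn6 and rn5. The sources used here do not give which of them made this table, its annotation or strand setting, or how RNA was selected. Since replication-dependent histone mRNAs lack a poly(A) tail, their counts can depend on that selection, which was not tested.

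All genes were fitted together with edgeR 4.0.16 (R 4.3.3; TMM scaling, filterByExpr with a minimum count of 10 and total of 15, quasi-likelihood F-test, 3 residual degrees of freedom, Benjamini-Hochberg over 12210 genes, threshold 0.05), and 4554 genes were not tested. The procedure was tested on simulated data. The labels name replicates but no separate animals, so p-values measure the spread between these libraries. Members and gene lists were chosen with earlier results of these data known. Values in each library are given for members past the threshold, then for tested members by highest group mean CPM, up to 34 genes, and for some members always named for their role; from each other list up to 3 genes per comparison by smallest adjusted p are named. Alternatives were scaling by total count, upper quartile or RLE, a filter of 5 CPM in 2 libraries or none, DESeq2 1.42.0, limma-voom (limma 3.58.1), a replicate block, fits of 4 libraries, each library left out, USg 1 and DSg 1 left out together, and leaving out rRNA and olfactory receptor genes. Those chosen after seeing the data left out USg 2 and Spc 1 together or crossed the replicate numbers of Spc. Promoters came from RefSeq's GRCr8 table, and no coordinates of the count table were used. Replicate differences add 1 CPM.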

Additional observations from a re-analysis of the deposited data

How the results depend on the processing

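Members called higher and lower are written as pairs here (higher/lower), in the order DSg against USg, Spc against USg and Spc against DSg. Leaving out each library in turn gave 0 to 1/0 to 11, 4 to 11/4 to 11 and 2 to 10/1 to 6 members, and 0 to 317/0 to 1184, 1306 to 2288/922 to 2274 and 1168 to 2547/466 to 1742 genes in all. Those fits assume that the lone library of a group varies like the other groups. With DSg against USg, members numbered 2/5 with DESeq2, 12 lower with no filter, 0 higher in the fit of 4 libraries and 0 higher without USg 2 and Spc 1 together; all genes numbered 239/542, 189/855, 10/80 and 33 higher, and 141 lower with total count scaling. Without a filter 13 members were lower in Spc against USg, and 11 higher and 2 lower against DSg. The fit of 4 libraries called 10 members higher and 2152 genes lower in Spc against DSg. Leaving out USg 1 and DSg 1 together, which leaves only Spc replicated, gave 4/26, 12/19 and 20/2 members and 2992/3335, 4081/4165 and 4115/4177 genes. Leaving out USg 2 and Spc 1 together gave 4 members lower in Spc against USg (1034/746 genes) and 3/6 against DSg (596 genes lower).

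The libraries share only a replicate number. Across 12210 genes their deviations had a correlation of 0.25 for USg and DSg, -0.265 for USg and Spc and 0.0105 for DSg and Spc. With a replicate block, members lower in DSg against USg numbered 4 and all genes 168/436. Crossing the Spc numbers in that block gave 2/6 members and 313/672 genes for DSg against USg, 11 members lower in Spc against USg and 10/4 against DSg.

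Named members that changed direction with a call were Nap1l4 in Spc against DSg (-0.35 to 0.43 without USg 1 and DSg 1), Hist1h4m (-1.99 to 0.98 over the fits without 1 library, lowest without Spc 1, and -2.0 without USg 2 and Spc 1) and Hist1h2bl (-4.07 to 1.57, and -4.08). The cause was not tested. RLE scaling, limma-voom, the filter of 5 CPM and leaving out rRNA and olfactory receptor genes kept every count of members and genes within 1.5 times. With 2 libraries a group, the replicate spread limits what could be called. Log2 differences between replicates had an SD over all genes of 0.95 in USg, 0.947 in DSg and 0.434 in Spc.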
